A study of Macaca mulatta with 22 samples.

Results

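The genes described here encode enzymes of the mevalonate pathway and of cholesterol synthesis: ACAT2, HMGCS1, MVD, IDI1, FDPS, FDFT1, SQLE and LSS. A row of the deposited RPKM table (read counts scaled by gene length and by sequencing depth) was taken as a member when its symbol, from the Ensembl name of its identifier or otherwise from the file, was one of these 8. That rule found 7 genes in 8 of the 35468 entries. FDFT1 has only a code as its name in that column, and it was added through a second name column of the file, which gives 8 genes in 9 entries. The RefSeq peptide listed for that entry also belongs to FDFT1 in the RefSeq gene table.

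The samples were 22 individual rhesus macaque oocytes and preimplantation embryos, 7 oocytes and 15 embryos, at 9 stages. The oocytes came from superovulated donors after death and were at the germinal vesicle stage (GV, before meiosis resumes, 2 libraries), in metaphase of the first meiotic division (MI, 2 libraries) or arrested at metaphase II, ready for fertilisation (MII, 3 libraries). The embryos were made by injecting a sperm into the oocyte and were grown in culture to the pronuclear (PN, 3 libraries), 2-cell (2C, 2 libraries), 4-cell (4C, 3 libraries), 8-cell (8C, 2 libraries), morula (Mo, 3 libraries) or blastocyst stage (Bl, 2 libraries). MII and PN samples therefore differ in source as well as stage. RNA was amplified from a lysate of the whole oocyte or embryo. In blastocysts and other stages of several cells, a smaller share of a cell type and less RNA per cell cannot be told apart. The labels name no animals, so p-values measure the spread between single oocytes or embryos only.

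The mevalonate pathway turns acetyl-CoA into isoprene units, which FDPS joins into farnesyl diphosphate. Farnesyl diphosphate is a branch point: FDFT1 commits it to squalene and so to cholesterol, while other enzymes use it or its longer products for ubiquinone, dolichol and the lipid anchors of proteins such as Ras and Rab. Most enzymes of the route are transcriptional targets of the sterol-sensing factor SREBF2, and the mouse oocyte is known to receive part of its cholesterol from the cumulus cells that surround it.

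The labelled stages carried most of their markers. All 8 oocyte markers, among them ZP3 and GDF9, reached 1 RPKM or more at each oocyte stage, and also at each embryo stage up to 8C. Their sum was 5149 to 6226 RPKM at 8C and 2517 to 11994 at Mo, so these markers did not separate morulae from 8C embryos. The summed level of DUXA, ZSCAN4, KLF17 and LEUTX was 5092 to 5858 RPKM at 8C and 848 to 4146 at Mo. The summed trophectoderm markers reached 903 to 1223 RPKM at Bl against at most 69.3 RPKM before, but KRT8, 1 of these 4, stayed below 1 RPKM there. Inner cell mass markers summed to 146 to 173 RPKM at Mo and 150 to 372 at Bl. Of 3 sperm markers TNP1 was present at 8C, where the list summed to 5.43 to 45.2 RPKM. PRM2 also reached 1 RPKM or more at 2C and TNP1 at Bl, where the list summed to at most 2.35 and 1.91 RPKM. Of 12 cumulus and granulosa markers, FOXL2, INHA and PTX3 were listed at 0 in every oocyte, TNFAIP6 reached 1 RPKM or more at GV, MI and MII, HAS2 did so at GV and CYP11A1 and VCAN at MII, and the list summed to 22.6 to 91.3 RPKM in oocytes. The estimated depth was 5.55 to 21.4 M reads, lowest in 8C library 2. Morula library 2 stood apart, with 4277 entries at 1 RPKM or more against 6763 to 10017 in the other libraries. Member calls that changed without it are given both ways, whereas means and ratios of means at Mo include it.

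The members did not share a single course over development. FDFT1 was the member with the highest RPKM in 16 libraries, which were all libraries from GV to 4C and 8C library 2. FDPS was the highest in 5 libraries, the 3 morulae and both blastocysts, and IDI1 in 8C library 1. RPKM is scaled by length, but whether the genes were measured equally well was not tested, so this ranking between genes is approximate. Over the 9 stages together, limma's F test called FDFT1, FDPS, ACAT2 and HMGCS1 (adjusted p = 1.29e-06, 3.97e-05, 1.42e-04 and 0.00149), that is 4 of the 6 members tested that had at least 1 RPKM in 2 libraries without the blastocysts. Of all 14312 features, 68.3% were called in that test. IDI1 (0.151) and SQLE (0.0949) were not called, and each of these 2 was called when certain single libraries were left out: IDI1 without Mo library 2 (0.0233), and SQLE without PN library 3 (0.0342), Bl library 1 (0.041) or Bl library 2 (0.0305).

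**Figure D1:**
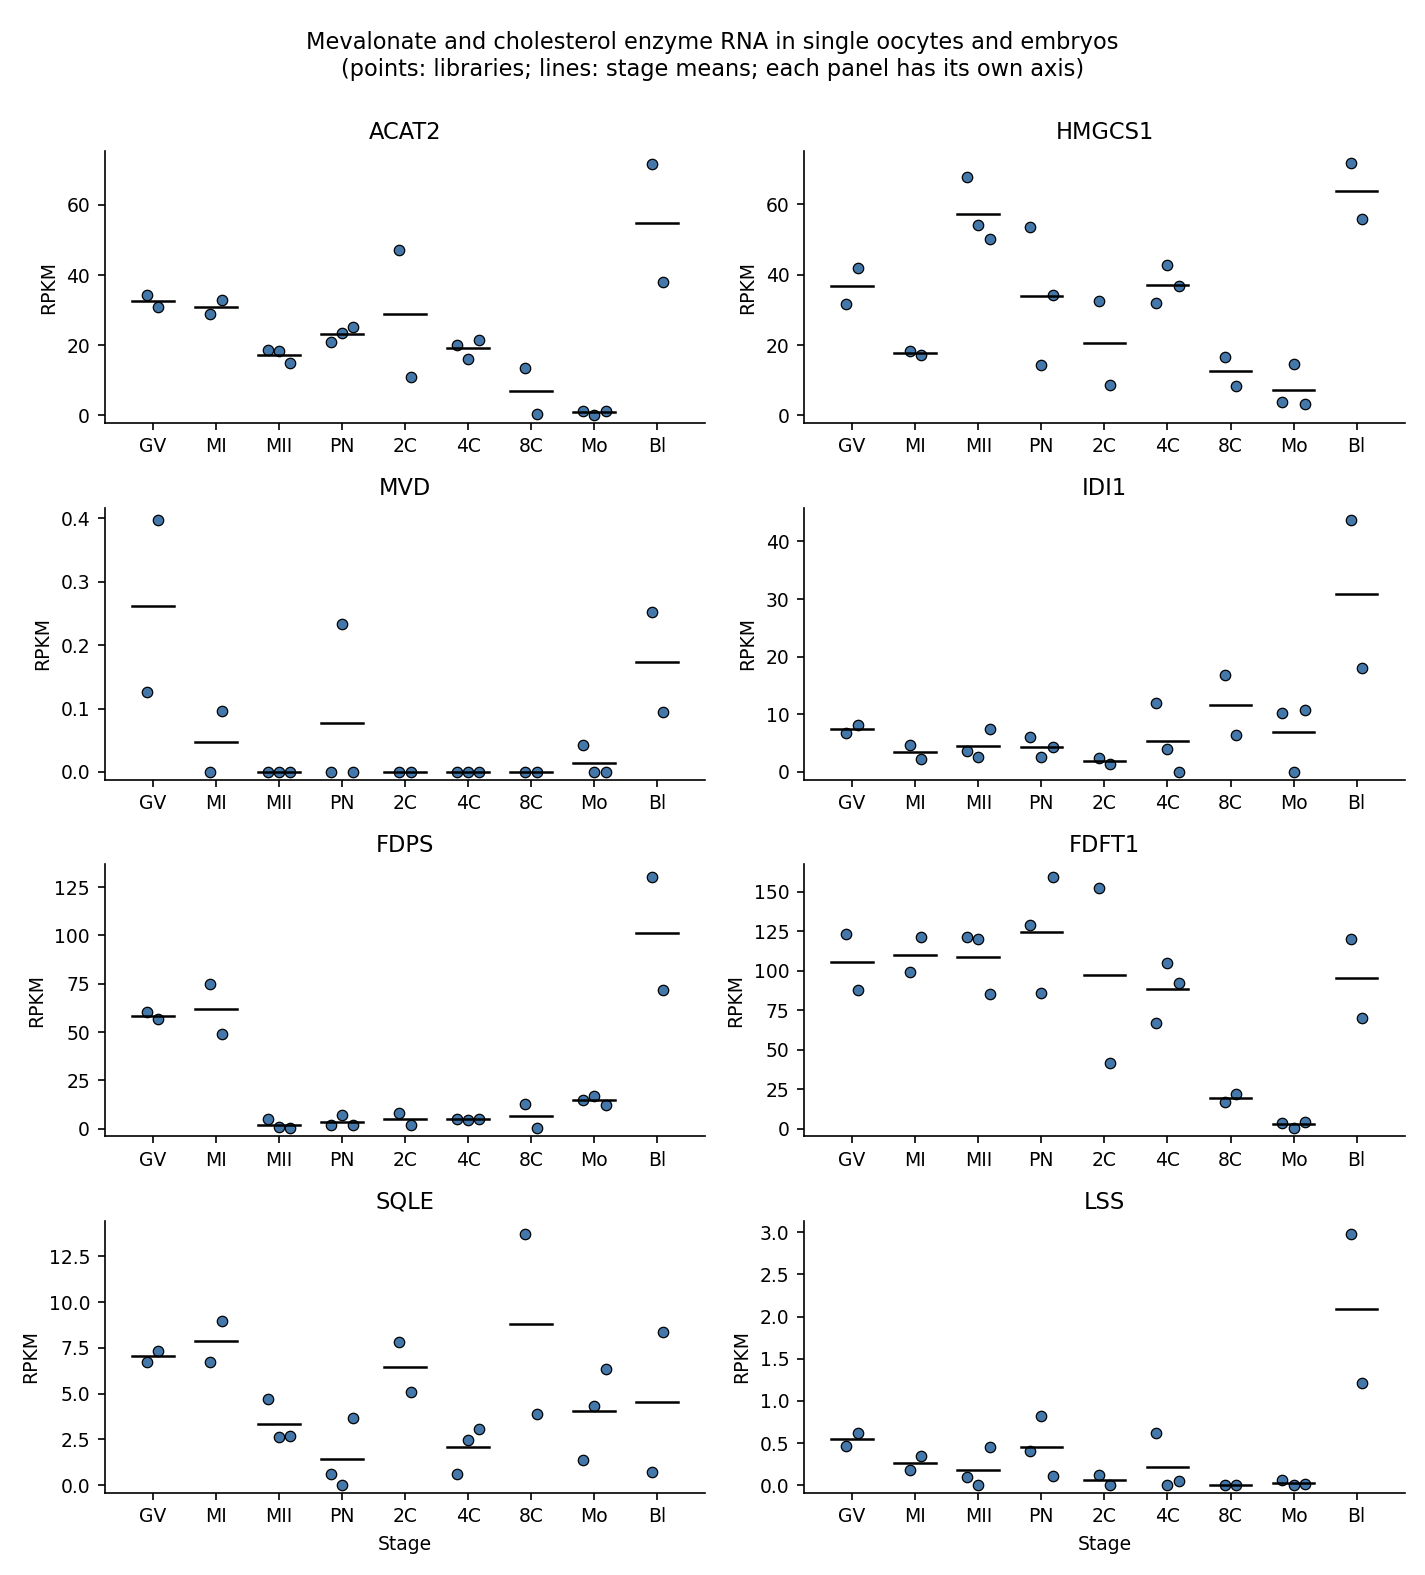
RPKM of each of the 8 members (y axis, own scale per panel) in each library (points) by stage (x axis), with the stage mean as a line. FDPS is high at GV and MI, low from MII to 8C and highest at Bl, whereas FDFT1 is at or above 41.8 RPKM in every library up to 4C and is at most 4.52 RPKM at Mo.

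The steps before the branch point begin with ACAT2 (ENSMMUG00000012843, chromosome 4, 156753669 to 156767735), the cytosolic thiolase that joins acetyl-CoA units. It is a different gene from the sterol esterase SOAT2, which shares the alias. ACAT2 was 34.4 and 31.0 RPKM at GV, 28.8 and 32.9 at MI, and 18.5, 18.2 and 14.8 at MII. It was 20.9, 23.4 and 25.2 RPKM at PN, 47.3 and 10.8 at 2C, and 20.1, 15.9 and 21.6 at 4C. Every library up to 4C therefore held more than 10 RPKM, and the MII oocytes were all below the GV and MI oocytes. The 8C embryos disagreed, with 13.4 and 0.253 RPKM, the morulae held 1.16, 0.141 and 1.37, and the blastocysts 71.8 and 38.2. The blastocysts were above all other libraries except 2C library 1, which lay between them, and the morulae were below every library except 8C library 2. A second entry that the file calls ACAT2 (ENSMMUG00000030261, chromosome 5, 59961432 to 59962895), not a member by the rule, was at most 3.11 RPKM before Bl and 16.1 and 2.96 RPKM in the blastocysts. The sequences of these 2 entries were not compared, and whether reads were split between them was not tested.

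HMGCS1 (ENSMMUG00000001226, chromosome 6, 43241607 to 43266108) makes HMG-CoA, from which mevalonate is formed. Its levels were 31.7 and 41.9 RPKM at GV, 18.3 and 17.2 at MI, and 67.7, 54.2 and 50.3 at MII. They were 53.7, 14.3 and 34.3 RPKM at PN, 32.4 and 8.71 at 2C, and 31.9, 42.7 and 36.9 at 4C. The MII oocytes were above all other oocytes, and PN and 2C embryos spread widely. At 8C HMGCS1 was 16.7 and 8.34 RPKM, at Mo 3.76, 14.7 and 3.24, and at Bl 71.8 and 55.9. By stage mean HMGCS1 was highest at Bl (63.8 ± 11.2 RPKM, SD, n = 2) and MII (57.4 ± 9.13, n = 3), whose ranges overlapped, and lowest at 8C (12.5 ± 5.88, n = 2) and Mo (7.25 ± 6.50, n = 3), whose ranges also overlapped.

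MVD (ENSMMUG00000014326, chromosome 20, 86806962 to 86818541) decarboxylates the mevalonate diphosphate that becomes isopentenyl diphosphate. It was above 0 in 7 libraries, reached at most 0.397 RPKM (GV library 2) and was not tested. No stage of the series carried MVD RNA at 1 RPKM.

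IDI1 (ENSMMUG00000017115, chromosome 9, 1220044 to 1227162) interconverts the isoprene units that FDPS joins. It was 6.73 and 8.10 RPKM at GV, 4.77 and 2.24 at MI, 3.60, 2.67 and 7.46 at MII, and 6.02, 2.57 and 4.28 at PN. It was 2.42 and 1.42 RPKM at 2C, 12.01, 3.96 and 0 at 4C, 16.9 and 6.46 at 8C, and 10.2, 0.058 and 10.8 at Mo. The low morula was library 2, which stood apart as a whole. The blastocysts held 43.7 and 18.1 RPKM, both above every other library. The blastocyst mean was 30.9 ± 18.1 RPKM (SD, n = 2), and the ranges of the other stages overlapped their neighbours in the order of means.

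FDPS (ENSMMUG00000023144, chromosome 1, 133870788 to 133883092), farnesyl diphosphate synthase, had the sharpest course in oocytes. It was 60.3 and 56.6 RPKM at GV, 75.1 and 49.1 at MI, and 5.15, 1.09 and 0.093 at MII. It was 1.94, 6.92 and 2.11 RPKM at PN, 7.92 and 2.08 at 2C, and 4.86, 4.35 and 5.15 at 4C. All 8 of these early embryos and all MII oocytes were below every GV and MI oocyte. At 8C FDPS was 12.8 and 0.354 RPKM, at Mo 14.6, 17.0 and 12.3, and at Bl 130.3 and 72.0. The stage means were 101 ± 41.2 RPKM at Bl, 62.1 ± 18.4 at MI and 58.5 ± 2.58 at GV, each overlapping the next. Mo followed at 14.6 ± 2.37 RPKM (n = 3), apart from GV, and below it the means of 8C (6.57), 2C (5.0), 4C (4.78), PN (3.66) and MII (2.11) overlapped from each to the next.

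FDFT1 (ENSMMUG00000019211, chromosome 8, 8901066 to 8935547), squalene synthase, turns farnesyl diphosphate toward sterols. It was 123 and 88.0 RPKM at GV, 99.3 and 121 at MI, 121, 120.2 and 85.0 at MII, and 129, 85.9 and 159 at PN. It was 152 and 41.8 RPKM at 2C and 67.2, 105.1 and 92.5 at 4C. These 15 libraries from GV to 4C overlapped from stage to stage. FDFT1 was then 16.7 and 21.6 RPKM at 8C, 3.30, 0.219 and 4.52 at Mo, and 120.3 and 70.4 at Bl. The 8C embryos were below all earlier libraries, the morulae were below the 8C embryos, and the blastocysts lay within the range of the early stages.

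SQLE (ENSMMUG00000003535, chromosome 8, 127602258 to 127625396), the squalene epoxidase that is a second control point of sterol synthesis, stayed at or below 13.7 RPKM. It was 6.76 and 7.32 RPKM at GV, 6.75 and 8.95 at MI, 4.72, 2.65 and 2.70 at MII, and 0.624, 0 and 3.66 at PN. It was 7.83 and 5.07 RPKM at 2C, 0.629, 2.47 and 3.09 at 4C, 13.7 and 3.90 at 8C, 1.37, 4.34 and 6.37 at Mo, and 0.745 and 8.36 at Bl. Neighbours in the order of stage means, from 8C (8.82) to PN (1.43), overlapped throughout.

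LSS (ENSMMUG00000022329, chromosome 3, 557314 to 596193), which closes the sterol ring system as lanosterol synthase, was at most 0.824 RPKM in any library before Bl and was listed at 0 in both 8C embryos. It was 2.98 and 1.21 RPKM in the blastocysts. LSS entered the tests only through those blastocyst values, so its calls are left out of the counts. Another entry named LSS (IMMRNTR2586, chromosome 6, 176813121 to 176828606) was listed at 0 in all 22 libraries.

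Meiotic maturation was compared as MI against MII and as GV against MII, and both comparisons use the same 3 MII oocytes. FDPS changed at MII by -4.68 on the log2(RPKM + 1) scale (SE 0.80, limma adjusted p = 0.00150) from MI, and the ratio of the mean RPKM was 29.5. Against GV it changed by -4.62 (SE 0.80, adjusted p = 0.00168). This fall was known when the gene list was drawn up. It was called in every alternative run, and with median-of-ratios scaling it was -4.23 (adjusted p = 0.00789) from MI. MII oocytes held 8048 to 8566 entries at 1 RPKM or more against 9371 to 10017 in GV and MI oocytes, and the cumulus marker sums overlapped between MI (58.8 to 77.5 RPKM) and MII (24.3 to 91.3). The part of these in the result was not tested.

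FDPS was the 1 member of 6 called from MI to MII, and it was lower, as were 6.99% of all features, while 1.49% were higher. From GV to MII it was again 1 of 6, with 8.97% of all features lower and 0.342% higher. FDFT1, the next enzyme, differed by -0.03 from MI to MII (95% interval -1.28 to 1.22) and by 0.04 from GV to MII. HMGCS1 was 3.24 times as high in mean RPKM at MII as at MI, a log2 difference of 1.63 (95% interval 0.32 to 2.94) with adjusted p = 0.115. It was called without Mo library 2 (0.0404) and when the model held only MI and MII (0.00443), a model that also called ACAT2 as lower (-0.81, 0.0452). That model called 899 of 9915 features higher and 2400 lower. The median difference of the 6 members from MI to MII was -0.42 against -0.15 for all features. Scaling by the median of ratios moved the median of all features to -0.01 and the calls from 213 higher and 1000 lower to 185 higher and 354 lower. From GV to MII it moved them from 49 higher and 1284 lower to 48 and 517. Single libraries weighed on these counts: without MI library 1 or 2 the features lower from MI to MII were 181 and 225, without Mo library 2 they were 1584, and without GV library 1 or 2 those lower from GV to MII were 222 and 446.

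In 4 comparisons, GV to MI, MII to PN, PN to 2C and 2C to 4C, limma called none of the 6 members. The share of all features called higher was 0.210% for GV to MI, 4.76% for MII to PN, 0.126% for PN to 2C and 0.377% for 2C to 4C. The share called lower was 0.377%, 2.91%, 0.342% and 0.196% in the same order. At an unadjusted limma p under 0.05 the counts of members were 0, 0, 1 and 0 of 6 in that order. Of all 14312 features, 758, 3037, 1259 and 1289 had such a p in the same order. The 1 member was SQLE from PN to 2C (log2 difference 1.90, adjusted p = 0.400). FDPS differed from MII to PN by 0.79 (95% interval -0.71 to 2.29).

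**Figure D2:**
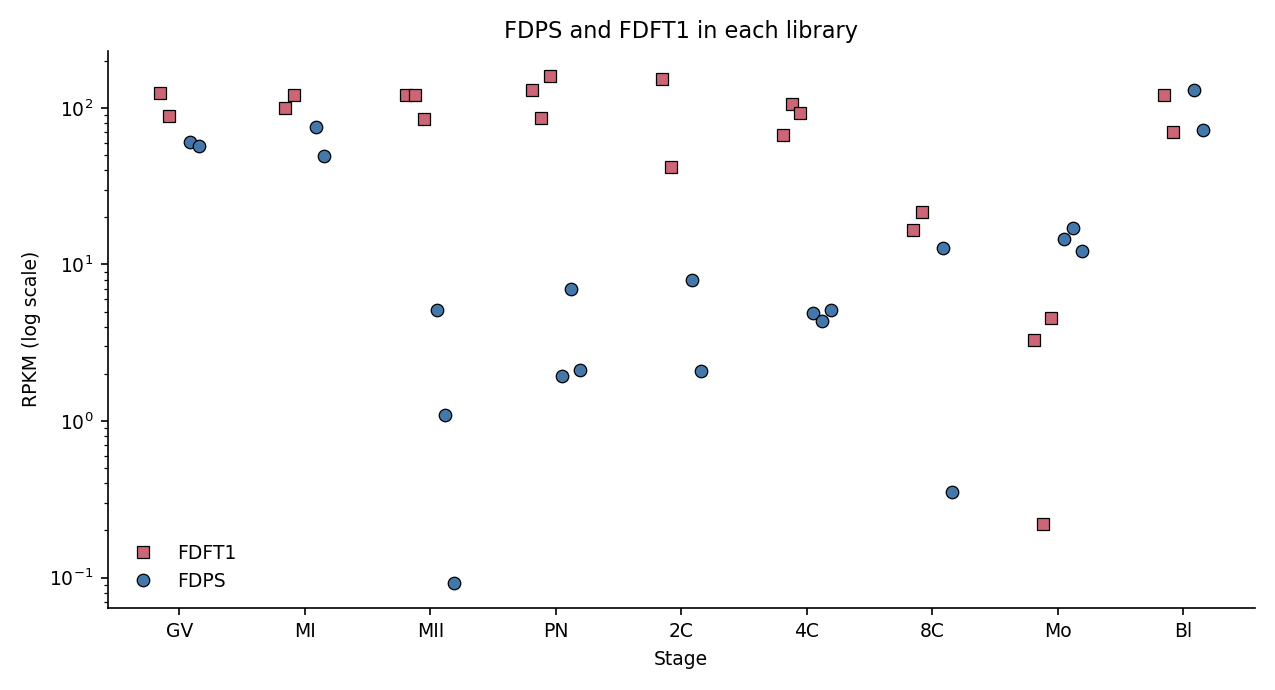
RPKM (y axis, log scale) of FDFT1 (squares) and FDPS (circles) in each library by stage (x axis). The enzymes on either side of farnesyl diphosphate are within 2.47-fold of each other at GV, MI and Bl, FDPS lies at least 12.4-fold below FDFT1 in all libraries from MII to 4C, and FDPS is the higher at Mo.

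Read within each library, the balance of FDFT1 to FDPS changed with stage. The ratio of the RPKM values was 2.05 and 1.55 at GV and 1.32 and 2.47 at MI, and then 23.6, 110.6 and 914 at MII. It was 66.6, 12.4 and 75.5 at PN, 19.2 and 20.1 at 2C, and 13.8, 24.2 and 18.0 at 4C. The MII to 4C libraries were all above the GV and MI libraries. The 8C embryos were split, at 1.31 and 61.2, the morulae were at 0.226, 0.013 and 0.369, and the blastocysts at 0.923 and 0.978. Morula library 2 had the lowest ratio, and the other morulae were also below all remaining libraries. Both genes come from the same library in each ratio, so a scaling of the whole library does not change it. The size of the extreme ratios is uncertain, because they rest on low values. FDPS was 1.09 and 0.093 RPKM where the ratio was 110.6 and 914 at MII, and 0.354 where it was 61.2 at 8C. FDFT1 was 0.219 RPKM in Mo library 2. The ratio was read from the data after the levels were seen and carries no test.

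Around the 8-cell stage, when the embryonic genome is switched on, ACAT2 and FDFT1 fell. From 4C to 8C FDFT1 changed by -2.13 on the log2(RPKM + 1) scale (SE 0.60, limma adjusted p = 0.0131), from a mean of 88.2 ± 19.3 RPKM (n = 3) to 19.2 ± 3.50 (n = 2). ACAT2 changed by -2.24 (SE 0.73, adjusted p = 0.0321), from 19.2 ± 2.92 to 6.84 ± 9.31 RPKM. These were 2 of the 6 members, with 10.2% of all features lower and 13.9% higher. Without 8C library 2, the shallowest, ACAT2 changed by -0.47 (0.692), and its call was also lost without any single library of 4C (0.0508 to 0.079), with no filter (0.0519) and in a model of 4C and 8C alone (0.108). FDFT1 lost its call without 8C library 1 (0.0985) and with a pseudocount of 0.1 (0.0626).

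HMGCS1 was also lower at 8C in every library than at 4C, by 1.56 on the log2 scale, but was not called (adjusted p = 0.0763). It was called without Mo library 2 (0.0264) and in a model of 4C and 8C alone (0.0333), which called 1719 of 10319 features higher and 1380 lower. SQLE was higher at 8C by 1.58 (adjusted p = 0.129) and IDI1 by 1.53 (0.272), neither of them called. FDPS differed by -0.42 (95% interval -2.10 to 1.26), with the 8C values on either side of the 4C values. The median of the 6 was -0.99 against 0.00 for all features.

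From 8C to Mo FDFT1 fell again, by 2.71 (SE 0.60, limma adjusted p = 0.00226), from 19.2 to 2.68 ± 2.22 RPKM (n = 3), and kept its call without each library in turn. It was the 1 of 6 called, with 20.0% of all features lower and 5.39% higher. The fall was not called in a model of 8C and Mo alone (0.105). ACAT2 was 6.84 RPKM at 8C and 0.890 ± 0.657 at Mo, a change of -1.24 that was not called (0.243). Without 8C library 2 it was -3.0 and called (0.00376). FDPS was higher at Mo by 1.84 (0.103), and this was called without 8C library 1 (3.52, 0.00519) and with median-of-ratios scaling (2.50, 0.0287). From 4C to Mo, compared here as levels only, the ratio of mean RPKM was 32.9 in favour of 4C for FDFT1, 21.6 for ACAT2 and 5.13 for HMGCS1, and 3.05 in favour of Mo for FDPS.

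**Figure D3:**
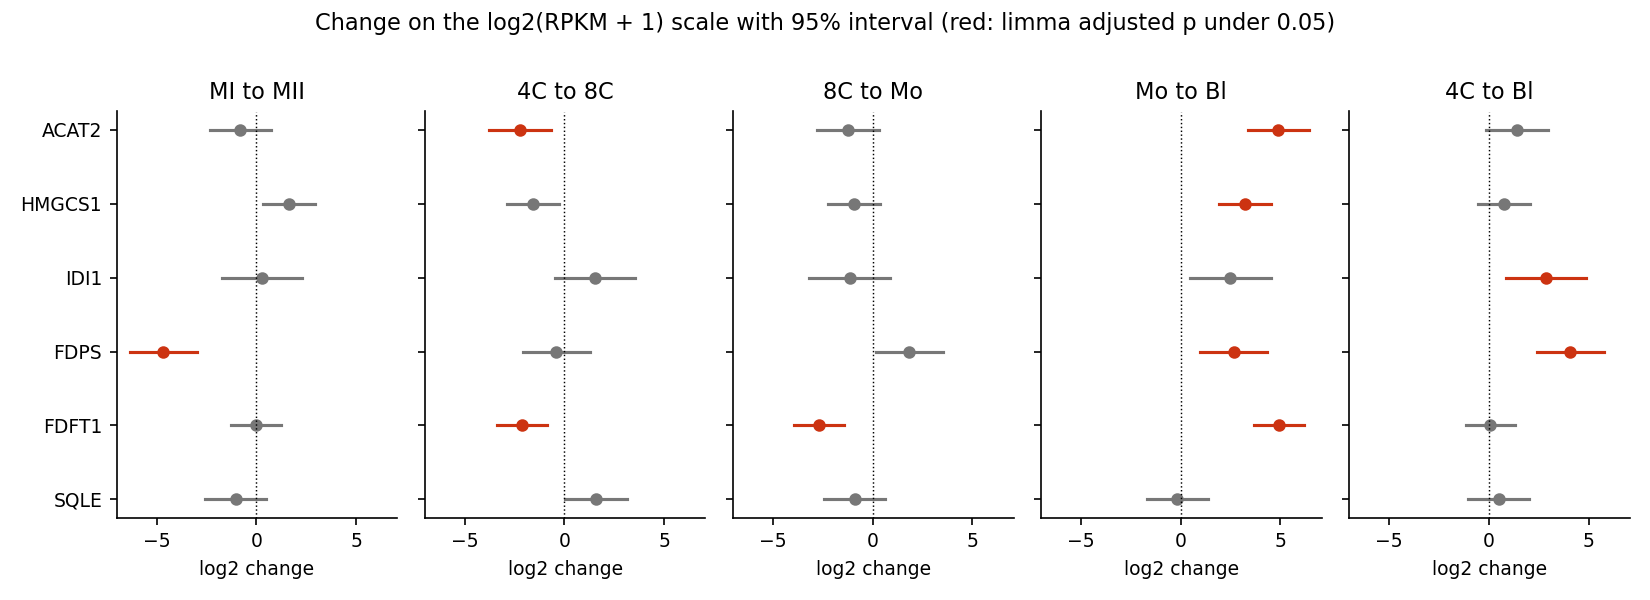
Change of 6 members on the log2(RPKM + 1) scale (x axis, points, with 95% intervals as lines) in 5 comparisons of stages, in red where the limma adjusted p was under 0.05. From MI to MII the red member is FDPS at -4.68, and from Mo to Bl ACAT2, HMGCS1, FDPS and FDFT1 are red, at 2.66 to 4.92.

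Between morula and blastocyst most members rose. FDFT1 rose by 4.92 on the log2(RPKM + 1) scale (SE 0.60, limma adjusted p = 1.43e-05), ACAT2 by 4.89 (SE 0.73, 1.42e-04), HMGCS1 by 3.24 (SE 0.62, 0.00142) and FDPS by 2.66 (SE 0.80, 0.0314). The means at Bl were 35.6, 61.8, 8.81 and 6.92 times those at Mo. That is 4 of 6 members, where 12.0% of all features were called higher and 2.12% lower. IDI1 was higher by 2.49 (95% interval 0.48 to 4.50) but not called (0.0953), and SQLE differed by -0.17 (95% interval -1.70 to 1.37). The median of the 6 was 2.95 against 0.23 for all features. The rise of the pathway in blastocysts was known when the list was drawn up.

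The FDPS call was lost under more alternatives than the other 3, namely without Mo library 1 (0.053), Mo library 3 (0.0609), Bl library 1 (0.244) or Bl library 2 (0.0686), with median-of-ratios scaling (2.07, 0.102), with a pseudocount of 0.1 (0.145), with no filter (0.0549) and in a model of Mo and Bl alone (0.0999). FDFT1, ACAT2 and HMGCS1 lost theirs in that last model only (0.0681, 0.0681 and 0.101), which called 9 of all features. IDI1 was called without Mo library 3 (0.0463). Without Mo library 2, FDFT1, ACAT2, HMGCS1 and FDPS were all called. Scaling by the median of ratios moved the median of all features from 0.23 to 0.08 and the calls from 1721 higher and 303 lower to 1494 higher and 663 lower.

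Several other measures moved with the blastocyst values. Trophectoderm markers summed to 903 to 1223 RPKM at Bl against 4.00 to 69.3 at Mo. CYP11A1, which cuts the cholesterol side chain at the start of steroid synthesis and was listed among cumulus and granulosa markers, was 1.13, 0.041 and 6.34 RPKM at Mo and 73.7 and 26.3 at Bl (log2 change 4.16, limma adjusted p = 5.52e-04). Of the rest of that list HSD3B2, STAR and TNFAIP6 also reached 1 RPKM or more at Bl, FOXL2, HAS2 and PTX3 were at 0 there, and the whole list summed to 32.6 to 75.6 RPKM. Bl library 1 was above Bl library 2 for HMGCS1, ACAT2, IDI1, FDPS, FDFT1 and LSS and below it for SQLE, and its RPKM values summed to 650643 against 387069. The part of these in the rise was not tested.

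Against 4C, with the same 2 blastocysts, the picture divided. FDPS was higher at Bl by 4.08 (SE 0.80, limma adjusted p = 4.88e-04) and IDI1 by 2.86 (SE 0.96, 0.0236), 2 of the 6 members where 20.5% of all features were called higher and 18.4% lower. The call of FDPS held without each library in turn (largest adjusted p 0.0138). That of IDI1 was lost without 4C library 3 (0.128) or Bl library 1 (0.198) and with a pseudocount of 0.1 (0.0605). FDFT1 differed by 0.08 (95% interval -1.17 to 1.34), HMGCS1 by 0.76 (-0.54 to 2.07), ACAT2 by 1.41 (-0.12 to 2.95) and SQLE by 0.50 (-1.03 to 2.04). ACAT2 was called without either 8C library (0.0369 and 0.0373) and in a model of 4C and Bl alone (0.0275). FDPS and IDI1 were thus called above their 4C level in the blastocysts, and no difference was detected for FDFT1 and HMGCS1. The blastocyst rise was known when the list was drawn up, so these calls are no separate support for it. IDI1 was not called in limma's F test over the 9 stages (adjusted p = 0.151).

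Set against the mean of the other 8 stages, again with the same blastocysts, 4 of the 6 members were higher: FDPS by 3.34 (limma adjusted p = 4.52e-04), IDI1 by 2.45 (0.0179), ACAT2 by 1.90 (0.0161) and HMGCS1 by 1.49 (0.0255). Of all features 18.5% were called higher and 20.5% lower. Because the list was drawn up with the blastocyst rise known, these calls also add no separate support for it. FDFT1 differed by 0.80 (95% interval -0.22 to 1.82) and SQLE by -0.34 (-1.59 to 0.91). Without Bl library 1 the call of FDPS was the 1 left (0.0295), and without Bl library 2 that of HMGCS1 was lost (0.0924).

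Across the 22 libraries, which differ in stage and share depth and amplification, the log2(RPKM + 1) values of FDFT1 and ACAT2 had a Pearson correlation of 0.874, those of HMGCS1 and ACAT2 0.719 and those of HMGCS1 and FDFT1 0.714. FDPS stood at -0.022 with FDFT1, 0.037 with HMGCS1 and 0.334 with ACAT2. The 5 genes whose values were most like those of FDPS over the 22 libraries were the proteasome ATPase subunit PSMC1 (0.897), the pyruvate dehydrogenase subunit PDHA1 (0.889), the sorting complex subunit VPS25 (0.871), MRFAP1 (0.868) and the mitochondrial ribosomal protein gene MRPL35 (0.863). Most like the mean of the members' standardised values were ABRACL (0.857), the electron transfer flavoprotein subunit ETFB (0.848), the proton pump subunit ATP6V1B2 (0.841), PIP5K1B (0.832) and the fatty acid oxidation enzyme DECR1 (0.831). That mean gave equal weight to all 7 tested members, LSS among them, which was tested only through its blastocyst values. With a pseudocount of 0.1, 2 of the 5 genes stayed in each group. With Spearman correlation 3 stayed for FDPS and 1 for the members' mean.

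The other genes of sterol and isoprenoid metabolism were taken from 5 lists of 71 genes, of which 70 had an entry and 54, in 61 entries, were tested. They cover the remaining enzymes to cholesterol, the isoprenoid branches, sterol sensing, cholesterol transport and the supply of acetyl-CoA and fatty acids. From MI to MII 8 of the 61 entries were called, each of them lower, where 6.99% of all features were lower and 1.49% higher, and the median change of the 61 was -0.31. NSDHL, which removes methyl groups from sterol precursors, was 57.8 and 42.4 RPKM at MI and 3.17, 0.742 and 1.63 at MII, a change of -4.24 (limma adjusted p = 0.00181). RNF139, a ligase of the endoplasmic reticulum that acts on sterol control, was 46.3 and 47.3 RPKM at MI and 4.54, 2.26 and 5.21 at MII, a change of -3.31 (8.66e-04). In both genes every MII oocyte was far below every GV and MI oocyte, and both calls from MI to MII held in all alternatives run. The NSDHL call from GV to MII did not hold without GV library 1. PDSS1, which takes part in making the isoprenoid tail of ubiquinone, was 37.5 and 29.9 RPKM at MI and 5.07, 2.15 and 6.11 at MII. Its change was -2.75 (limma adjusted p = 0.00629), and the call was lost without MI library 1 or 2.

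From MII to PN 6 of the 61 entries were called, each of them higher, where 4.76% of all features were higher and 2.91% lower. NSDHL was 8.89, 13.7 and 18.6 RPKM at PN, PDSS1 was 18.4, 26.8 and 21.7, and RNF139 was 12.1, 16.1 and 19.9. The changes were 2.41 (limma adjusted p = 0.0319), 2.16 (0.0143) and 1.80 (0.0253), and each call was lost without certain single libraries. Median-of-ratios scaling also ended the calls of NSDHL (0.0732) and RNF139 (0.0678), and that of NSDHL was lost with no filter (0.0632) or a pseudocount of 0.1 (0.105). All PN values of these 3 genes were above all MII values, whereas the FDPS ranges of PN and MII overlapped. Whether the members and these genes differ was not tested.

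**Figure D4:**
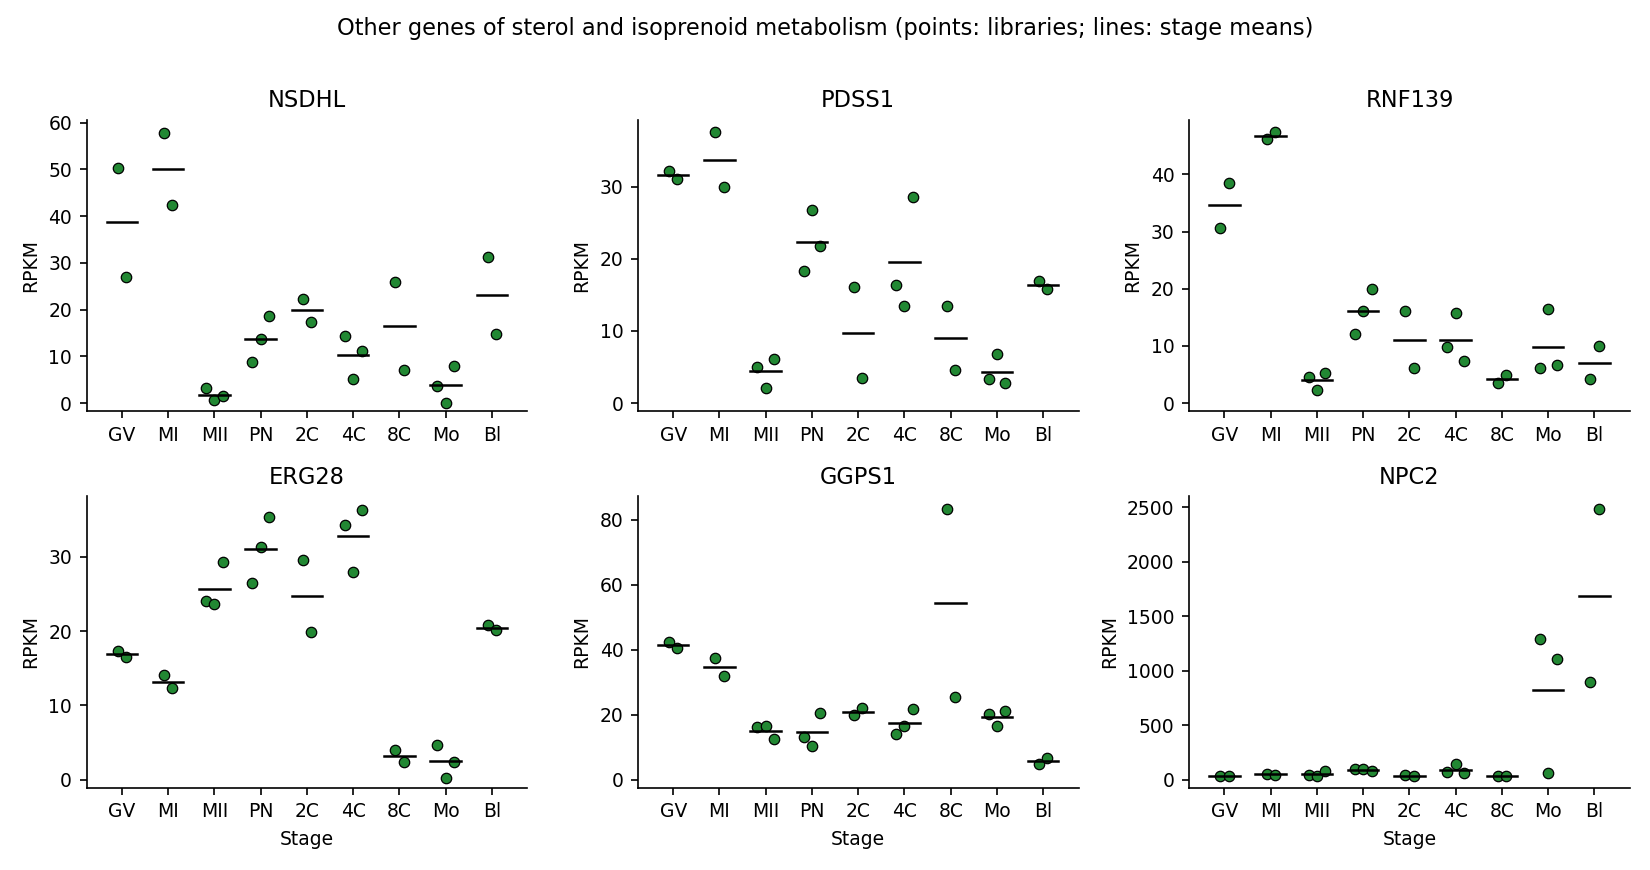
RPKM (y axis, own scale per panel) of 6 other genes of sterol and isoprenoid metabolism in each library (points) by stage (x axis), with stage means as lines. NSDHL, PDSS1 and RNF139 are low at MII, ERG28 is at most 4.67 RPKM at 8C and Mo and 20.2 to 20.8 at Bl, GGPS1 is at most 6.80 RPKM at Bl, and NPC2 is at or above 901 RPKM in 2 of the 3 morulae and in both blastocysts.

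From 4C to 8C, 1 of the 61 entries was called higher and 9 lower, where 13.9% of all features were higher and 10.2% lower. ERG28, a scaffold that tethers sterol demethylation enzymes, was 34.3, 28.0 and 36.4 RPKM at 4C, 3.98 and 2.36 at 8C and 4.67, 0.267 and 2.44 at Mo, and returned to 20.8 and 20.2 at Bl. It changed by -3.04 from 4C to 8C (limma adjusted p = 1.49e-04) and rose by 2.88 from Mo to Bl (4.92e-04), a call lost in a model of Mo and Bl alone (0.143). INSIG2, which holds the SREBF precursors in the endoplasmic reticulum, was 66.8, 43.2 and 82.2 RPKM at 4C and 3.31 and 3.98 at 8C, a change of -3.76 (8.37e-04). ERG28 and INSIG2 kept their 4C to 8C calls in all alternatives run. The 1 entry called higher was GGPS1, which extends farnesyl to geranylgeranyl diphosphate, at 14.1, 16.5 and 21.8 RPKM at 4C and 83.4 and 25.5 at 8C (1.38, 0.0358). That call was lost without 8C library 1 (0.541), 4C library 1 (0.103) or 4C library 2 (0.0749), with a pseudocount of 0.1 (0.0599) and in a model of 4C and 8C alone (0.0975).

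From 8C to Mo 7 of the 61 entries were called higher and 10 lower, where 5.39% of all features were higher and 20.0% lower. RABGGTB, a subunit of the enzyme that attaches geranylgeranyl to Rab proteins, was 17.2 and 8.31 RPKM at 8C and 198, 132 and 130 at Mo (3.54, limma adjusted p = 1.00e-04), and it was called in all alternatives run. NPC2, which hands cholesterol out of the lysosome, was 33.9 and 31.7 RPKM at 8C, 1289, 65.7 and 1107 at Mo, and 901 and 2480 at Bl (8C to Mo 3.76, 0.0032), a call lost in a model of 8C and Mo alone (0.115). All 5 late libraries were above both 8C embryos, with Mo library 2 the lowest of them.

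From Mo to Bl 6 of the 61 entries were called higher and 2 lower, with a median of 0.33, where 12.0% of all features were higher and 2.12% lower. Beside ERG28, NSDHL rose from 3.72, 0.050 and 7.96 RPKM to 31.3 and 14.8 (2.68, limma adjusted p = 0.0203), a call lost without Mo library 2 (0.0645) or Bl library 1 (0.214) and in a model of Mo and Bl alone (0.228). GGPS1 fell from 20.2, 16.5 and 21.3 RPKM to 4.76 and 6.80 (-1.59, 0.0255), a call lost without Mo library 3 (0.0513) or either blastocyst (0.201 and 0.0607) and in that model (0.348). CYP51A1 (IMMRNTR4160), the sterol demethylase, was the other entry called lower, from 6.02, 54.1 and 9.07 RPKM to 1.22 and 4.72 (-2.14, 0.0371), and its highest value was in Mo library 2. Without that library it was not called (0.133), nor without Bl library 1 (0.374), with a pseudocount of 0.1 (0.15), with no filter (0.0608) or in a model of Mo and Bl alone (0.34). In GGPS1 all blastocysts were below all morulae, the opposite order to that of FDPS. Of the regulators, SREBF2 was at most 2.18 RPKM in all 22 libraries and was not called from Mo to Bl (0.78, adjusted p = 0.166), and no entry carried the name INSIG1.

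Set against 4C, the same blastocysts had 7 of the 61 entries called higher and 13 lower, with a median of -0.14, where 20.5% of all features were higher and 18.4% lower. Against the mean of the other 8 stages 6 were higher and 13 lower, with a median of -0.28, where 18.5% of all features were higher and 20.5% lower. Of the 11 tested entries of the other enzymes to cholesterol, 1 was higher and 2 were lower in each comparison. Their median was 0.07 against 4C (0.00 for all features) and 0.40 against the other stages (-0.20 for all features). The 2 lower entries were the late enzymes SC5D and DHCR7. SC5D, a sterol desaturase, was 57.4, 23.3 and 54.9 RPKM at 4C and 2.06 and 10.4 at Bl (-2.86, limma adjusted p = 0.00217), and against the other stages it changed by -2.03 (0.00604). DHCR7, the enzyme of the last step to cholesterol, was 2.13, 2.05 and 3.35 RPKM at 4C and 0 and 0.393 at Bl (-1.55, 0.0194), and against the other stages it changed by -1.62 (0.00393). The calls of both genes were lost without Bl library 1, at 0.0823 and 0.151 against 4C and at 0.306 and 0.0992 against the other stages, and that of DHCR7 against 4C also without 4C library 3 (0.0628). PMVK, which phosphorylates mevalonate phosphate, was the 1 entry of the other cholesterol enzymes called higher, by 1.15 (0.0122) and 0.90 (0.0158), and both calls held in all alternatives run.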

How the data were processed

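The authors deposited 1 table of RPKM values for 22 libraries, each column matched to its sample by title. Per the labels' protocols a SMARTer ultra low input kit amplified RNA of whole-cell lysates, and sequencing libraries came from a TruSeq DNA kit. The build was Mmul_8.0.1 per the submitters' processing notes. The table states none, and positions are printed as deposited. The aligner and counting program are not given in the sources used here.

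Depth was estimated for each library from values of entries spanning under 200 bp, as the depth at which most of them came to whole reads. At the chosen depths 418 of 441 (94.8%) were within 0.05 of whole reads. That share was what the choice maximised, so it is no separate check of the depths.

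Stage means of log2(RPKM + 1) were fitted to all libraries together with limma 3.58.1 (R 4.3.3), leaving 13 degrees of freedom for the residuals, and variances were moderated with trend and robust settings. An entry was tested if 2 or more libraries reached 1 RPKM, which left 14312 entries, 7 of them members. Changes of low genes are understated on this scale. P-values are 2-sided, adjusted by Benjamini-Hochberg over all tested entries within each of 11 comparisons and an F test, and a call is an adjusted p under 0.05. Likeness is Pearson correlation over the 22 libraries, and the 5 highest named genes with an Ensembl identifier are given.

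Symbols whose Ensembl name is only a code were looked up in the file's second name column. From each gene list at most the 4 called entries with the smallest adjusted p per comparison could be named, and SREBF2 and INSIG1 were named whatever they did. Some listed genes are not reported here. The members and lists were chosen with earlier results of these data known. Scripts were tested on simulated data. Alternatives were a pseudocount of 0.1, no filter, a filter at 5 RPKM, median-of-ratios scaling (reference of 5405 entries), the replicate number as a block, a model of only the stages compared, and each library left out. Tables and plots were made in Python (3.11.15) with pandas (2.3.3), numpy (2.4.6) and matplotlib (3.10.9).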

Additional observations from a re-analysis of the deposited data

How the results depend on the processing

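No member call changed sign under any alternative run. With only the stages compared, the number of members called was 1 higher and 2 lower from MI to MII (0 and 1 in the reported fit), 2 lower from GV to MII (1), 0 lower from 8C to Mo (1), 0 higher from Mo to Bl (4) and 3 higher from 4C to Bl (2). All features called in that model were 899 higher and 2400 lower of 9915 from MI to MII, and 2473 lower of 10137 from GV to MII. They were 1443 lower of 9264 from 8C to Mo, 9 higher of 8541 from Mo to Bl and 2924 higher of 10372 from 4C to Bl. From 4C to 8C the model called 2 members lower as before, with HMGCS1 in place of ACAT2, and 1380 of 10319 features lower. That model uses the few libraries of 2 stages and could not be fitted for the comparison with the other 8 stages or the F test. With a pseudocount of 0.1 the counts of members were 1 lower from 4C to 8C (2), 3 higher from Mo to Bl (4), 1 higher from 4C to Bl (2) and 2 higher against the other stages (4). Of 14312 features, 1334, 1647, 2804 and 2426 were called so in the same order. With no filter the counts of members were 1 lower from 4C to 8C and 3 higher from Mo to Bl, where 1330 and 2036 of 24169 features were called so. Median-of-ratios scaling gave 1 member higher from 8C to Mo (0) and 3 higher from Mo to Bl (4), where 1279 and 1494 of 14337 features were higher. With a filter at 5 RPKM no count of members moved. Apart from construction, the cause of these changes was not tested.

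Leaving out each library in turn, the members called ranged from 0 to 1 higher from MI to MII, 1 to 3 lower from 4C to 8C, 0 to 1 higher and 1 to 2 lower from 8C to Mo, 3 to 4 higher from Mo to Bl, 1 to 3 higher from 4C to Bl and 1 to 4 higher against the other stages. Where 1 library of a stage is left, it is assumed to vary like the other stages. With the replicate block the members called were 1 lower from MI to MII, 2 lower from 4C to 8C, 1 lower from 8C to Mo and 4 higher from Mo to Bl, and no call of a member changed. The numbers do not pair the samples: the mean correlation of deviations was -0.002 over 78 pairs with the same number and 0.001 over 136 others. The block left 34 features called higher from 2C to 4C, against 54.

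Scaling moved the median change of all features from -0.19 to -0.04 from GV to MII, from -0.15 to 0 from PN to 2C, from -0.38 to -0.27 from 8C to Mo and from -0.20 to -0.06 for the blastocysts against the other stages. Over the libraries left out in turn, all features called from MI to MII ranged from 51 to 402 higher and 181 to 1584 lower, and from GV to MII from 7 to 172 and 222 to 1835. Scaling moved the calls from PN to 2C from 18 higher and 49 lower to 22 and 29. RPKM values carry no counts, and with 2 or 3 libraries a stage an uncalled member can have changed.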
